A study of Homo sapiens with 2 samples.

Results

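Polycomb repressive complex 1 (PRC1) was examined through 9 of its subunit genes, chosen by name: BMI1, PCGF3, PCGF5 and PCGF6 of the PCGF family, the catalytic subunits RING1 and RNF2, the chromodomain readers CBX2 and CBX7, and the Polyhomeotic protein PHC3. Members were sought in the list of mERG peaks by gene symbol, and a gene without an entry was counted as having no peak detected. Of the 9 genes, 2 (PCGF5 and PHC3) were named, each by 1 peak, beside 21.0% of all protein-coding RefSeq genes and 16.6% of all RefSeq genes with a curated transcript. Thus 2 of the 18070 peaks and 2 of the 5011 named genes belonged to this group. Peak identifiers run up to number 18276, so some numbered peaks appear to be missing from the list. The study raised an antibody against a mono-methylated form of the ERG transcription factor (mERG) and used it for ChIP-seq in VCaP, a prostate cancer cell line positive for the TMPRSS2-ERG fusion. The series holds 1 anti-mERG ChIP library and 1 control library, both from VCaP cells with no treatment named. The control is titled as input while its antibody is given as IgG, so which of these it was cannot be told apart from the labels. There was no replicate, so no difference between peaks could be set against a replicate error. The deposited list holds no read counts, which leaves the depth of the libraries unknown, and no expression values with which the cell line could be checked against its markers.

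PRC1 is a chromatin complex that attaches ubiquitin to histone H2A and helps to keep developmental genes silent. Every form of the complex pairs a catalytic RING protein, RING1 or RNF2, with a PCGF protein. Canonical forms also carry a CBX protein, which reads the histone H3 mark written by EZH2 and its partners in PRC2, and a Polyhomeotic protein, whereas variant forms carry RYBP or YAF2 instead. EZH2 is the methyltransferase that the study links to ERG, which is the reason to ask where mERG peaks lie relative to the genes of the companion complex.

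The sequences of both member peaks are shown because they are the only sites in the list that name a PRC1 subunit of the set. They were read from GRCh37 (the same assembly as hg19) on the plus strand. Capitals mark GGAA or its reverse complement TTCC, the core that ETS factors such as ERG bind. The third sequence is the centre of the strongest peak at RYBP, a variant PRC1 subunit, given for comparison.

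PCGF5, whole peak, chr10:93033980-93034253: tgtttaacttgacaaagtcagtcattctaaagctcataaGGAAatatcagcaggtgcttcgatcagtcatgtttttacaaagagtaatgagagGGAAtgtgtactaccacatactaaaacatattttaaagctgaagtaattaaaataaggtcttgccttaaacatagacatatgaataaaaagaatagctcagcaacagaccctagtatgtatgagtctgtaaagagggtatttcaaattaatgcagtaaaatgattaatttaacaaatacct

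PHC3, 201 bases around the peak centre, chr3:169882395-169882595: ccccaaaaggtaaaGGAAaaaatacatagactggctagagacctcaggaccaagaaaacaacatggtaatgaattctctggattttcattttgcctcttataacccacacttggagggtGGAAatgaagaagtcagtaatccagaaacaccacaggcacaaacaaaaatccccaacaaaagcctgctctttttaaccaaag

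RYBP, 201 bases around the peak centre, chr3:72491088-72491288: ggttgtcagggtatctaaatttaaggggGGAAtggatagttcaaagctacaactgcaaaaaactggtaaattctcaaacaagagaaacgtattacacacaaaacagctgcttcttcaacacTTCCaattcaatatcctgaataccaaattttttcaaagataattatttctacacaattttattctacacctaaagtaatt

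PCGF5, which serves variant PRC1 together with its close paralog PCGF3, was named by 1 peak of 274 bp at chr10:93033980-93034253. The annotation of the list placed it in intron 9 of 9 of PCGF5, and its centre lay 53.8 kb downstream of the transcription start site (TSS) the list used. The intron is thus far into the gene. The GENCODE gene starts further upstream, 111 kb from the peak centre, and the peak lay 9.98 kb before the 3' end of the gene without overlapping an exon. Its score, the strength that the peak caller gave, was 33.9, against a median of 40.9 over the list, and 8.18% of all peaks scored lower. The PCGF5 site was thus among the weaker sites that the list holds.

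PHC3, a Polyhomeotic subunit through which PRC1 units can join into larger assemblies, was named by 1 peak of 436 bp at chr3:169882278-169882713. It lay in intron 4 of 14, with its centre 17.0 kb downstream of the TSS, and its score was 34.4, with 12.6% of all peaks lower. Like the PCGF5 site, it was a low-scoring site in an intron, where 87.6% of all peaks lay. A second peak lay inside PHC3 although the list did not name it for this gene. This peak of 324 bp, at chr3:169810685-169811008, fell in the 3' UTR of PHC3 (exon 15 of 15) and was assigned to GPR160, whose TSS was nearer (55.1 kb) than that of PHC3 (88.7 kb). Its score of 49.2 was higher than that of both peaks that named a member, and 73.5% of all peaks scored lower. PHC3 was the only 1 of the 9 genes with a peak above the median score inside its body.

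The list names genes by the nearest TSS, so a peak inside 1 gene can carry the name of its neighbour. When peaks were assigned by overlap with the GENCODE gene body, PCGF5 and PHC3 were again the members with a peak, with 1 peak and 2 peaks. The bodies of the other 7 genes, 227 kb in all, held none.

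Both member peaks had their centre in an old L1 element by the annotation of the list, L1ME4a at PCGF5 and L1MDa at PHC3. Over all peaks, 12.6% were centred on an L1 element and 42.4% on a repeat of any kind. Within 100 bp of its centre each member peak held 2 copies of GGAA (either strand), and 83.8% of the 18037 peaks on chromosomes of the genome used held at least 1. Both sites thus held the short core that most peaks hold. The longer ETS core CCGGAAGT was sought on both strands, allowing 1 changed base as long as GGAA was intact. Neither peak held it within 100 bp of the centre, where 2.62% of all peaks did. Over the whole peak neither held it, against 6.40% of all peaks. In base composition the PCGF5 window was 33.3% GC and the PHC3 window 40.3%, beside a median of 38.3% over all peaks. The letters of the motif search are a description of these windows and do not mark bound sites.

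**Figure D1:**
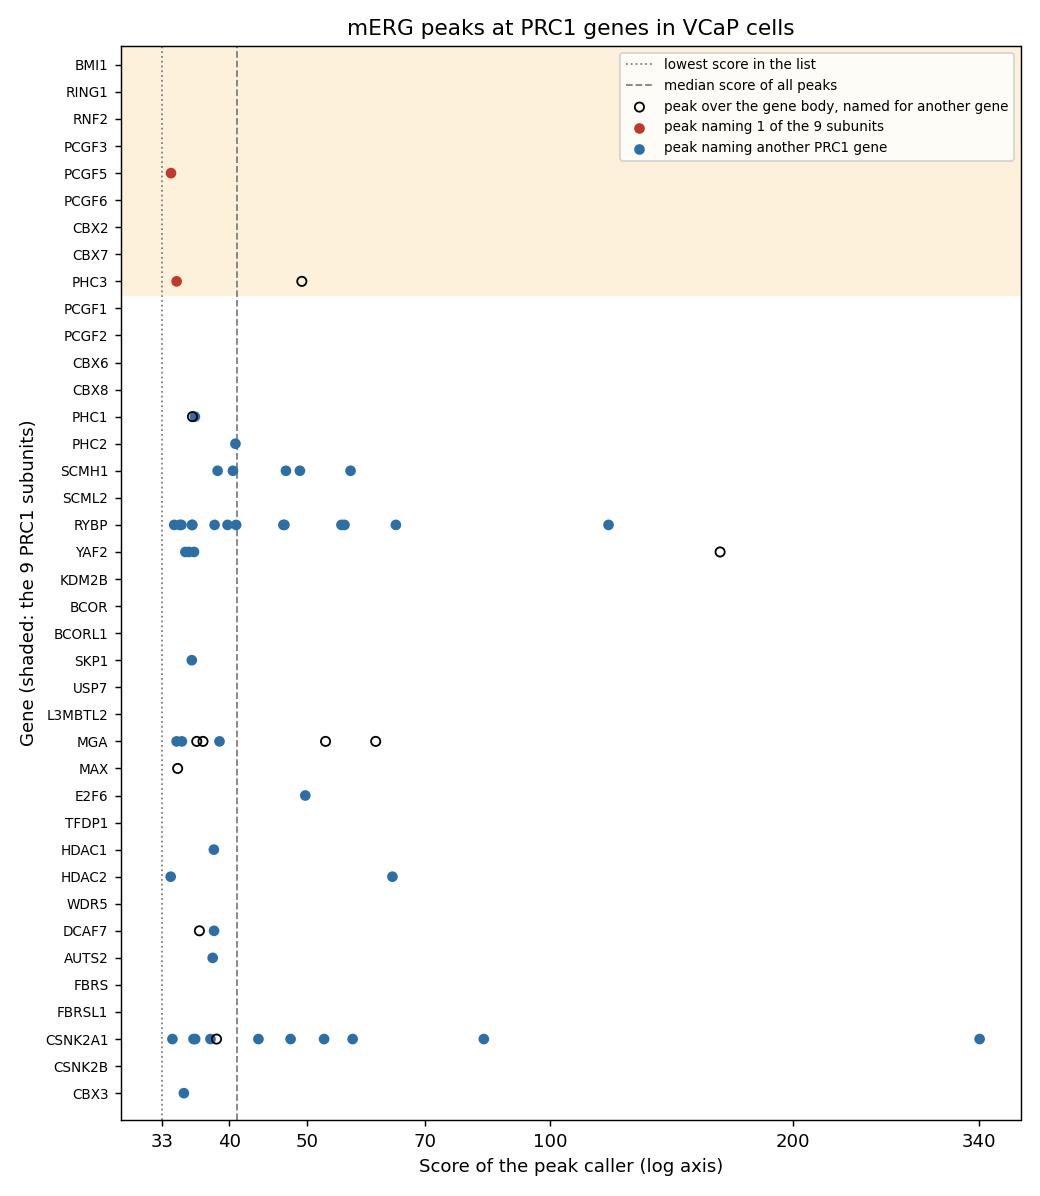
Score of every mERG peak (log axis) at the 9 PRC1 subunits (shaded) and at 30 other PRC1 genes; filled points are peaks that name the gene and open circles are peaks over its body that name another gene. The peaks naming PCGF5 (33.9) and PHC3 (34.4) sit close to the lowest score of the list (dotted line) and below the median of all peaks (40.9, dashed line), and 7 of the 9 subunits have no point.

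The count of 2 of 9 genes is 22.2% (Wilson 95% interval 6.32 to 54.7%, counting error only). This is near the background of 21.0% of protein-coding genes, so the share is not a result about the subunits. The peaks that named PCGF5 and PHC3 scored low among those of named genes, which does not hold for the peak inside PHC3 that named GPR160. The strongest peak of a named gene had a median score of 44.5 over the whole list, and 10.3% of the named genes (517) had a strongest score no higher than that of the peak naming PHC3. A single peak was found at 44.1% of named genes, and the median score of those single peaks was 37.4. With 1 library and 2 peaks these are descriptions of the list.

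Gene length went along with being named. Among protein-coding genes ranked by length into 10 classes, the named share was 4.76% in the shortest class, 40.4% in the ninth and 35.7% in the longest. PCGF5 (121 kb) and PHC3 (95.02 kb) were the longest of the 9 subunits, and both fell in the ninth class. The named genes of that class had a median of 3 peaks and a median strongest score of 47.9, above the 1 peak and the scores of PCGF5 and PHC3. A single peak was found at 31.5% of them, so 1 peak was not rare in this class, and the second peak inside PHC3 (49.2) scored above the class median. PCGF3 (64.3 kb) came next in length and was not named, in a class with a named share of 35.6%. RNF2 (57.1 kb) and PCGF6 (48.3 kb) belonged to a class with a share of 29.0%, and CBX7 (32.5 kb) to one with 23.8%. The shortest subunits lay where few genes were named at all: BMI1 (10.4 kb) and CBX2 (9.84 kb) in a class with 8.53% and RING1 (4.22 kb) in one with 6.39%. How far length accounts for the pattern among the subunits was not tested.

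In all, 3 peaks overlapped the 443 kb of the 9 gene bodies, or 6.77 per Mb (exact Poisson 95% interval 1.40 to 19.8 per Mb, counting error only). The interval takes peaks as independent, but 2 of the 3 lay in PHC3, so it may be too narrow. By peak centre the count was also 3. Protein-coding gene bodies of the whole genome held 13.0 peak centres per Mb, a value inside that interval. A difference in peak density between these genes and others was not detectable with so few peaks.

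BMI1, a PCGF protein and proto-oncogene that sustains self-renewal of stem cells, was not named by a peak. Its gene (GRCh37 chromosome 10, 22610028 to 22620413) overlaps the read-through gene COMMD3-BMI1, which was named by 0 peaks too. The nearest peak in the list lay 268 kb upstream of BMI1, at chr10:22341589-22341788, in an intergenic region and was assigned to DNAJC1. It was the only peak within 500 kb of the BMI1 TSS, and its score of 33.5 was also near the lowest of the list. Absence from the list does not show absence of binding at BMI1, since depth and the threshold of the peak caller both limit what the list can hold.

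The catalytic subunits, which carry the ubiquitin ligase activity, were both without a peak. For RING1 (chromosome 6, 33176277 to 33180499) the nearest peak lay 94.1 kb downstream, in an intron of TAPBP, with a score of 54.5. For RNF2 (chromosome 1, 185014658 to 185071735) the nearest lay 129 kb upstream, in intron 1 of FAM129A, with a score of 38.0. Neither neighbourhood was rich in peaks, with 4 peaks within 500 kb of the RING1 TSS and 1 within 500 kb of that of RNF2.

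Among the PCGF genes without a peak, PCGF3 (chromosome 4, 699537 to 763877) had its nearest peak 167 kb downstream at GAK, with a score of 56.4, the only peak within 500 kb of its TSS. PCGF6 (chromosome 10, 105062553 to 105110901), the PCGF protein of the variant complex that contains MGA and L3MBTL2, had the closest peak of all 7 genes. It lay 20.5 kb upstream of the gene, in intron 1 of TAF5, with a score of 34.3. PCGF6 also had the fullest neighbourhood, with 13 peaks within 500 kb of its TSS. Of these, 9 were named for NT5C2 and lay 171 to 246 kb downstream of the PCGF6 TSS, with scores from 34.0 to 55.8, and TAF5 was named by 2. The peaks around PCGF6 thus gathered at a neighbour and left the PCGF6 body empty.

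CBX2 and CBX7 are alternative readers of canonical PRC1. CBX2 (chromosome 17, 77751947 to 77761782) had no peak over its body. Chromosome 17 had 15.3 peaks per Mb, against a median of 5.06 over chromosomes, but the 1 Mb around the CBX2 TSS held 2 peaks. CBX7 (chromosome 22, 39516172 to 39548685) had the most distant neighbour, 459 kb downstream at CBY1, with a score of 51.1. Chromosome 22 had 3.47 peaks per Mb.

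Peak content of the neighbourhood went along with being named as well. Within 500 kb of the TSS the 9 subunits had a median of 2 peaks, against 4 over protein-coding genes, and 6 subunits were below that value. When peaks named for the gene itself were left out, 6.72% of protein-coding genes with 0 peaks in this range were named, 17.9% of those with 1 to 4, 29.0% of those with 5 to 19 and 41.5% of those with 20 or more. With the exception of PCGF6 (13 peaks), all 9 subunits had 1 to 4. In that range, the named share was 32.2% in the length class of PCGF5 and PHC3 and 6.43% in that of BMI1 and CBX2. For other subunits that were not named it was 30.1% (PCGF3), 24.8% (RNF2), 18.5% (CBX7) and 3.76% (RING1). PCGF6, not named either, had the highest share of the 9, at 35.8% for its length class with 5 to 19 peaks. No member had a peak centre within 10 kb of its GENCODE TSS. By the distances of the list, only 7.09% of background genes were named by a peak within 10 kb. The lack of such a peak among 9 genes is thus not a result about the subunits. Peaks within 1 kb of a TSS were rare in the whole list, at 0.481% of peaks.

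The wider complex was described through 30 other PRC1 genes from textbook membership. Of these, 14 (46.7%) were named, by 45 peaks, beside 21.0% of all protein-coding genes. The named share in the length class of each of the 30 genes averaged 27.2%, and over the 9 subunits 24.6%. As the list was not a random draw and was chosen with earlier results known, its share is a description. Enrichment was not tested. Of the 45 peaks, 24 belonged to RYBP and CSNK2A1. The strongest peak of the 14 named genes had a median score of 38.6, lower than the 44.5 of all named genes. A score of 50 was reached at 4 of them, RYBP, CSNK2A1, SCMH1 and HDAC2. These values cover only peaks that named the gene, and YAF2 and MGA held stronger peaks named for other genes. The 30 genes have 3062 kb of gene body, with 17.6 overlapping peaks per Mb, beside 13.0 peak centres per Mb of all protein-coding bodies. Of the 54 peaks over the 30 bodies, RYBP held 14 and CSNK2A1 held 11. The difference from the 9 subunits was not tested.

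By subunit type across both lists, all 3 Polyhomeotic genes were named, each by 1 peak: PHC3 (34.4), PHC1 (36.3, intron 6 of 14) and PHC2 (40.7). The PHC1 body also held a peak (36.0) named for M6PR. Beside these counts stand named shares of 40.4% in the length class of PHC2 and PHC3 and 23.8% in that of PHC1. The peak at PHC2 was intergenic in the list but inside the GENCODE gene. Of the 6 PCGF genes PCGF5 alone was named, PCGF1 and PCGF2 being without a peak as well, a count near the background of 21.0%. The CBX genes CBX6 and CBX8 were without a peak, like CBX2 and CBX7, and CBX2, CBX6 and CBX8 lie in the length class with a named share of 8.53%. SCMH1, an SCM protein that associates with canonical PRC1, was named by 5 intronic peaks with a highest score of 56.5, and SCML2 was not named.

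Among the groups of the wider list, the 2 shared subunits of variant PRC1 together carried the most peaks (17), mainly through RYBP. RYBP, which stimulates the ubiquitin ligase activity and competes with CBX proteins for the RING subunits, was named by 14 peaks, 13 of them in introns. The strongest had a score of 118 and lay 4.59 kb downstream of the TSS, and its centre is the sequence shown above beside those of PCGF5 and PHC3. Its paralog YAF2 was named by 3 peaks with scores up to 36.2. A stronger peak inside YAF2, with a score of 162, was named for GXYLT1, as the 3' UTR peak of PHC3 was for GPR160.

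Partners of PCGF3 and PCGF5 differed widely. CSNK2A1, a catalytic subunit of casein kinase 2, was named by 10 peaks that the list placed in introns. The strongest had a score of 340 at 4.44 kb from the TSS. Its centre lay in a GENCODE exon of the gene, as did that of a peak with a score of 56.9. AUTS2, a gene of 1195 kb, was named by 1 peak (38.2), and FBRS, FBRSL1 and CSNK2B were not named. In the PCGF6 complex 5 of 9 partners were named, beside 21.0% of all protein-coding genes. The long genes MGA, MAX and HDAC2 lie in length classes with named shares of 40.4%, 40.4% and 35.6%. For the shorter partners the class share was 29.0% (HDAC1 and TFDP1), 16.3% (E2F6, L3MBTL2 and WDR5) and 12.0% (CBX3). HDAC2, a histone deacetylase, was named by 2 peaks with scores of 33.8 and 63.7, and MGA, a DNA-binding scaffold, by 3 peaks with scores up to 38.9. The MGA body held 7 peaks, of which 4 were named for other genes, with scores of 60.8, 52.7, 37.1 and 36.5. E2F6 (49.7), HDAC1 (38.3) and CBX3 (35.1) were each named by 1 peak, and L3MBTL2, MAX, TFDP1 and WDR5 were not named, although the MAX body held 1 peak (34.5) named for another gene. In the PCGF1 complex SKP1 (35.9) was named and KDM2B, BCOR, BCORL1 and USP7 were not. DCAF7, found in several variant complexes, was named by 1 peak (38.3). The bodies of DCAF7 and CSNK2A1 each held 1 more peak, named for TACO1 (36.7) and TBC1D20 (38.6).

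Of the 16 genes in this wider list that were not named, 5 (SCML2, BCOR, BCORL1, USP7 and FBRS) lie on chromosome 16 or X. Those chromosomes held 26 and 30 peaks in all, and no gene of either list on them was named. None of the 9 subunits lies on chromosome 16 or X. Chromosome 10, which carries BMI1, PCGF5 and PCGF6, had 2.91 peaks per Mb. The part of chromosome in the count of named genes was not tested.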

How the data were processed

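VCaP cells gave 1 mERG ChIP library and 1 control library. Peak calling by the authors used MACS with the hg19 assembly, and per the file headers annotatePeaks.pl of HOMER added the gene annotation. The submitters' processing notes also name Bowtie2 and Picard, and versions and thresholds are not given in the sources used here. The score was deposited by the authors for each peak and is not normalized to depth. Its values are of the size of a scaled log10 p-value of MACS, but the list does not state the scale.

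Genes were matched by symbol. Gene bodies came from GENCODE release 44 mapped to GRCh37, and gene classes from RefSeq (GRCh38.p14, names only). The background was 29989 RefSeq genes with a curated transcript, 19443 of them protein-coding. Length and neighbourhood classes used the 19098 protein-coding genes with a GENCODE position. Sequence was read for the 18037 peaks on chromosomes of that genome. Motif search and overlap counts were tested on simulated data. No test between conditions was possible. The members and lists were chosen with earlier results of these data known. The genes named were the 9 subunits, a fixed list of other PRC1 genes (30, with 1 more not analysed here), the genes named by the nearest peaks and those overlapping a subunit. NT5C2, GXYLT1, M6PR, TACO1 and TBC1D20 were named after their values were seen. Alternatives were the stronger 50% of peaks, a score of at least 50, peaks within 10 kb of the TSS, assignment by gene body (overlap of at least 1 bp, or the peak centre), protein-coding genes only, and other motif and intron definitions. Sequences were read with pysam 0.24.0, intervals came from SciPy 1.17.1 and figures from Matplotlib 3.10.9, with pandas 2.3.3 and NumPy 2.4.6 under Python 3.11.15.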

Additional observations from a re-analysis of the deposited data

How the results depend on the processing

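With the stronger 50% of peaks, with a score of at least 50, and with peaks within 10 kb of the TSS, 0 subunits were named by 0 peaks, and the 2 intronic member peaks became 0 in the stronger 50%. Under these settings, in that order, 10.3%, 6.05% and 7.09% of background genes and 5, 4 and 6 of the other PRC1 genes were named, since fewer peaks enter by construction. By gene body overlap 15.3% of the 26703 background genes with a GENCODE position held a peak, a smaller set than for the other shares, and of protein-coding genes alone 21.0% were named. The ETS core in place of GGAA was found in 0 of the member peaks. Gene body overlap with the stronger 50% of peaks, chosen after seeing the data, left 1 subunit, PHC3, through the peak in its 3' UTR. The other counts, by gene body overlap or peak centre, whole-peak GGAA, GENCODE introns and, added after seeing the data, Entrez matching and introns over all gene body peaks, moved by at most 1. The highest score of a peak naming a subunit, 34.4, had 1 alternative, which left out peaks wider than 5 kb. Both member peaks were narrower (274 and 436 bp), so this alternative could not change the value and shows nothing about its stability. No paired analysis was possible because the series has 1 ChIP library and 1 control. The unknown depth, the threshold of the peak caller, the gap in peak numbers and the missing replicate limit what a gene without a peak can show.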
